A study of Homo sapiens with 6 samples.

Results

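The comparison described here sets a higher against a lower dose of the chemokine CXCL12 given together with the growth factor IGF1, in MDA-MB-231 cells, a human breast cancer line that lacks the oestrogen and progesterone receptors. It rests on 4 of the 6 libraries of the study, chosen by their treatment labels: 2 replicates, a and b, with 300 ng/mL CXCL12 and 100 ng/mL IGF1, and 2 with 30 ng/mL CXCL12 and 10 ng/mL IGF1. The 2 libraries of cells given neither factor served only as the reference that places a gene's response along the dose. All cells expressed ribosomal protein L10a tagged with EGFP, had spent 24 h in 0.2% serum, and were harvested 6 h after treatment. Ribosomes were pulled down with anti-GFP beads (translating ribosome affinity purification, TRAP), and the polyadenylated RNA that came with them was sequenced, so each value is a gene's share of the ribosome-bound mRNA. A changed share can reflect how much of an mRNA there was, how much of it sat on tagged ribosomes, or its recovery, and total RNA was not analysed here. Because the factors were raised together, their contributions cannot be told apart. The sources do not say whether the tagged cells were a clone or a mixed population.

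IGF1 binds the tyrosine kinase receptor IGF1R, which signals through PI3K and AKT. AKT keeps FOXO transcription factors out of the nucleus, and the mTORC1 kinase complex further down the pathway promotes ribosome production and lipid synthesis and keeps TFEB, a transcription factor of lysosome genes, in the cytoplasm. CXCL12 binds CXCR4, a G protein-coupled receptor that guides cell migration and also reaches PI3K and ERK. A dose series of ligands can show whether a target follows the dose, needs the higher dose, or moves one way and then back.

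Library totals over genes lay between 26255079 and 30280322 reads, so that 3 reads are worth 0.0991 to 0.114 CPM (reads on genes scaled to a common library total). The mesenchymal markers of the line were present, with VIM at 2675 to 3753 CPM, AXL at 998 to 1206 CPM and CD44 at 739 to 942 CPM over the 6 libraries. SPARC, also in the list of present markers, had only 0.165 to 0.389 CPM, and of 7 markers listed as absent or low, ESR1, PGR, CDH1 and FOXA1 stayed at or under 0.45 CPM. The other 3 were detected, ERBB2 at 54.2 to 77.4 CPM, EPCAM at 11.3 to 13.6 CPM and GATA3 at 9.41 to 11.1 CPM. Of 10 markers of blood, endothelial, liver, pancreas and pigment cells, 4 were at 0 in every library, with CD3E, CDH5 and INS among them. The summed level of the 10 was 18.6 and 19.7 CPM in the untreated pair, 14.3 and 15.3 CPM with the lower and 10.6 and 12.3 CPM with the higher dose, and CD14 made up most of it. The part of other cells in the results was not tested. In a principal component plot of the libraries, component 1 (56.9% of the variance) ordered the groups by dose and component 2 (12.9%) set the lower dose libraries, at −10.5 and −9.93, apart from the other 4. The labels call a and b biological replicates and say no more, so p-values measure the spread between such libraries, which was small (biological coefficient of variation 1.79%).

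Between the doses, 2221 of 13548 genes tested were higher (16.4%) and 2391 lower (17.6%) at the higher dose, at an adjusted p under 0.05 in edgeR's quasi-likelihood test. Most of these differences were small. The median absolute log2 fold change of the genes called was 0.205, 610 were at least 1.2-fold higher and 846 at least 1.2-fold lower, and at 1.5-fold the counts were 64 higher (0.472%) and 116 lower (0.856%). In what follows the first step is the lower dose minus untreated, in which 2262 genes rose (16.7%) and 2156 fell (15.9%), and the second step is the higher minus the lower dose. Higher dose minus untreated, the sum of the steps, had 3805 rises (28.1%) and 3821 falls (28.2%). The difference between the steps was itself tested, and was positive in 347 genes (2.56%) and negative in 532 (3.93%). These counts were 127 and 217 without the lower dose library a, 144 and 254 without the lower dose library b, and 168 and 297 without the higher dose library a. Both steps use the lower dose libraries, so a deviation of those libraries moves the steps in opposite directions. With DESeq2 the counts were 91 and 124. For single genes the difference is given from the edgeR fit to all 6 libraries and was not followed under other settings.

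Each gene called in the second step was given a response shape. Graded genes were also called in the first step and in the same direction: 1119 rose in both steps (8.26% of the genes tested) and 1139 fell in both steps (8.41%). Genes called as seen only at the higher dose did not pass in the first step and differed from untreated cells in the direction of the second step. Of these, 898 rose (6.63%) and 1020 fell (7.53%). A first step that misses the threshold does not show that nothing happened at the lower dose. In 601 of the 898 and 658 of the 1020 the 95% interval of the first step lay within 0.2 of 0 on the log2 scale. The median second steps of these genes were 0.173 and −0.177, so this margin alone does not exclude a first step of similar size. In 126 of the 898 and 174 of the 1020 the second step differed from the first by its own test. Genes that turned back had a first step called in the opposite direction, with 68 up in the second step (0.502%) and 93 down (0.686%). The test of the difference between the steps passed in 159 of these 161. Called steps of opposite direction make such a pass nearly certain, so it adds no support to the shape. The other 275 genes could not be placed. The calls vary with the method: DESeq2 called 1310 higher and 1393 lower genes between the doses, with 621 and 619 graded, 615 and 709 seen only at the higher dose, and 23 and 19 turned back. Without the lower dose library b 712 rises were graded, and without the higher dose library b 668 falls were seen only at the higher dose.

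**Figure D1:**
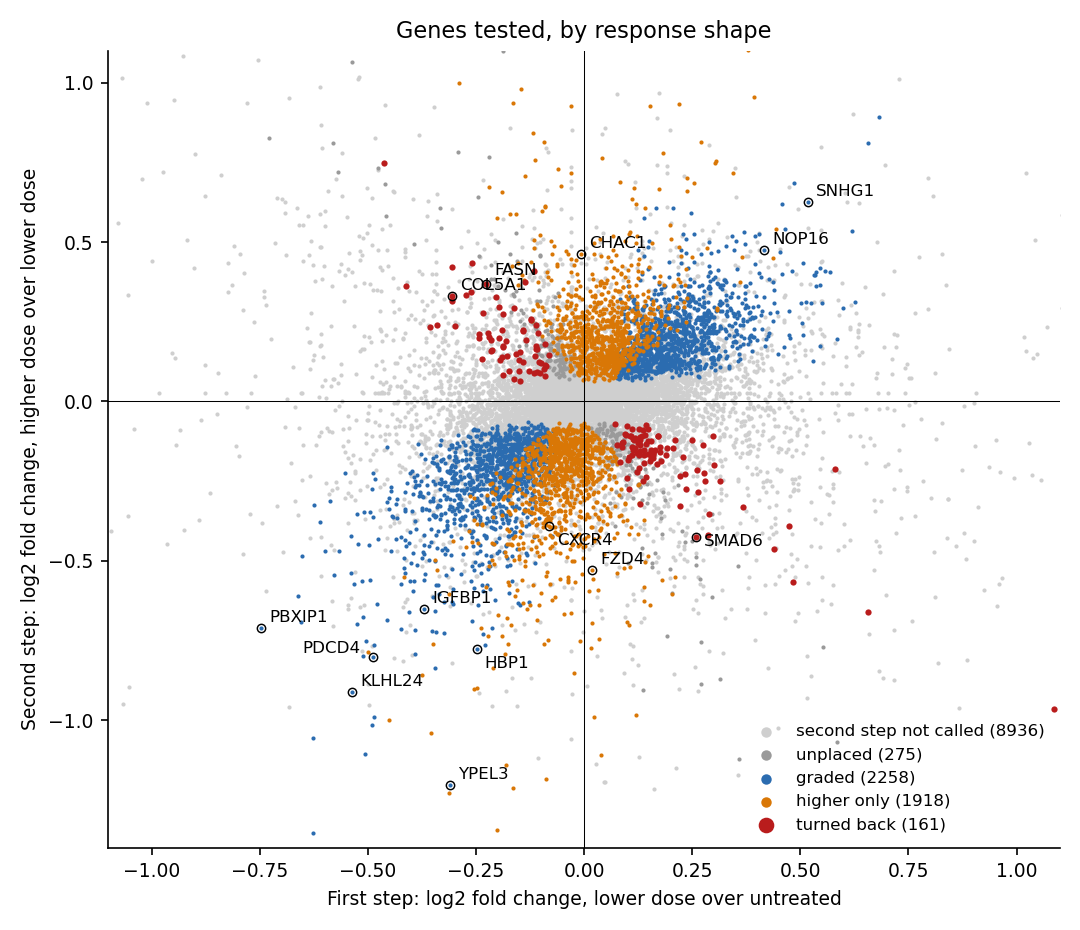
Each point is a gene tested, with the log2 fold change of the first step (lower dose over untreated) on the horizontal axis and that of the second step (higher over lower dose) on the vertical axis, coloured by response shape, with the number of genes in the key. Graded genes fill the lower left and upper right corners and genes that turned back fill the remaining corners. SNHG1 lies at 0.52 and 0.62, YPEL3 at −0.31 and −1.20, and FASN at −0.23 and 0.37. The axes leave out 35 genes and hold 13513.

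Of the 12 highest second steps among genes with at least 5 CPM and no overlap between the doses, 3 belonged to noncoding genes that host small nucleolar RNAs (snoRNAs, guides for the modification of ribosomal RNA). With 2 libraries against 2, a lack of overlap between the doses was common: it held for 8775 of the 13548 genes tested and 4605 of the 4612 called. SNHG1, a snoRNA host, had 65.8 and 70.9 CPM in the untreated libraries, 99.2 and 96.8 CPM at the lower dose and 149 and 153 CPM at the higher dose. The groups did not overlap at any step, and the second step was 0.62 ± 0.03 SE (edgeR adjusted p = 5.02e-21). LOC388796 (SNHG17), another host, had 11.2 and 13.03 CPM untreated, 16.4 and 17.7 CPM at the lower and 27.3 and 27.6 CPM at the higher dose, a second step of 0.68 ± 0.07. C7orf40 (SNHG15) had 13.2 and 12.1 CPM untreated, 18.4 and 16.5 CPM at the lower and 25.9 and 24.8 CPM at the higher dose, a second step of 0.54 ± 0.07. All 3 hosts rose in the first step too, by 0.52, 0.49 and 0.47, and were graded under each of the 13 alternatives that gave shapes. Of 15 snoRNA host genes tested, 11 rose in the second step and 0 fell, with a median of 0.25 beside −0.001 over all genes tested, 12 rose in the first step, and 10 were graded. SNHG3 made most of its rise at the lower dose, with 79.7 and 85.8 CPM untreated, 127 and 122 CPM at the lower and 139 and 145 CPM at the higher dose, and its second step of 0.20 was smaller than its first of 0.59 (difference −0.39, adjusted p = 1.33e-05).

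Among protein-coding genes, PUS1, which makes pseudouridine in transfer RNAs, had 22.3 and 22.8 CPM in the untreated libraries, 26.6 and 25.5 CPM at the lower dose and 39.3 and 39.99 CPM at the higher dose. Its second step was 0.61 ± 0.05 (adjusted p = 1.29e-13), a 1.52-fold rise over the lower dose. AEN, an apoptosis-enhancing nuclease induced by p53, had 27.3 and 30.3 CPM untreated, 31.2 and 33.6 CPM at the lower and 47.8 and 50.9 CPM at the higher dose. Its second step of 0.61 ± 0.05 was larger than its first of 0.17 by 0.44 (adjusted p = 0.00164). POLR3G, a subunit of RNA polymerase III, rose by 0.59 ± 0.07 from 12.1 and 13.2 to 19.2 and 18.9 CPM. PUS1, AEN and POLR3G were graded here, but under 2, 4 and 5 of the 13 alternatives the first step missed the threshold. The other genes of the highest 12 were LOC100128881 (VPS9D1-AS1), C3orf52, C16orf55, FAM86A, ZNF593 and SLC27A5, with second steps of 0.81, 0.68, 0.66, 0.62, 0.57 and 0.55. VPS9D1-AS1 lies antisense to another gene and FAM86A has close paralogs, so their reads may be shared.

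Among genes with at least 5 CPM the lowest second step was that of YPEL3. This gene of growth arrest, a FOXO target, had 22.03 and 20.5 CPM in the untreated libraries, 16.9 and 17.3 CPM at the lower dose and 7.77 and 7.09 CPM at the higher dose. The second step was −1.20 ± 0.09 (adjusted p = 6.21e-17), which left 0.43 of the lower dose level, and it exceeded the first step of −0.31 (difference −0.89, adjusted p = 5.33e-06). KLHL24, a substrate adaptor of a ubiquitin ligase, had 21.2 and 21.04 CPM untreated, 14.7 and 14.4 CPM at the lower and 7.63 and 7.83 CPM at the higher dose, a second step of −0.91 ± 0.09. PDCD4, an inhibitor of the initiation helicase eIF4A, had 60.5 and 59.6 CPM untreated, 43.4 and 42.2 CPM at the lower and 24.98 and 24.1 CPM at the higher dose. Each of these 3 genes was lower at every dose, without overlap between groups. PDCD4 changed by −0.80 ± 0.05 in the second step (adjusted p = 3.08e-18), more than in the first (difference −0.32, adjusted p = 0.0135). TP53INP1, a p53 target that takes part in autophagy, had 9.97 and 10.7 CPM untreated, 9.39 and 8.72 CPM at the lower and 5.07 and 5.79 CPM at the higher dose and was seen to fall at the higher dose only (−0.74 ± 0.11). CALCOCO1, an autophagy receptor for the endoplasmic reticulum, changed by −0.80 ± 0.07. METTL7A, SORBS2, C5orf41 (CREBRF), FLJ10038, RCSD1 and PLSCR4 completed the lowest 12 together with HBP1, with second steps from −0.83 to −0.75.

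Some strong falls were spread evenly over the doses. PBXIP1, a cofactor of homeodomain proteins, had 51.7 and 49.4 CPM untreated, 29.4 and 30.7 CPM at the lower and 19.1 and 17.7 CPM at the higher dose, with a first step of −0.75 ± 0.05 and a second of −0.71 ± 0.06. JUP, plakoglobin of desmosomes and adherens junctions, had 34.2 and 30.7 CPM untreated, 20.6 and 20.5 CPM at the lower and 12.9 and 12.6 CPM at the higher dose, with steps of −0.65 and −0.69. The difference between the steps did not pass the test for either gene (0.04, adjusted p = 0.897, and −0.04, adjusted p = 0.912). CST1, a secreted cystatin, had a second step of −0.57, and CDKN1C, the cyclin-dependent kinase inhibitor p57, −0.70. Both were graded under each of the 13 alternatives.

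FOXO targets and other genes of growth restraint were counted as a list. This list and the others were chosen with earlier results of these data known, so their counts are descriptive. Over all genes tested, 16.4% rose and 17.6% fell in the second step, and 16.7% rose and 15.9% fell in the first. Of 46 tested, 25 fell in the second step and 6 rose, with a median of −0.25, or −0.14 among members with at least 5 CPM. In the first step 20 fell and 4 rose (median −0.14). The 6 rises became 3 without the lower dose library b. The falls divided into 16 graded genes and 9 seen only at the higher dose, and in 9 members the second step was more negative than the first by its own test and in 2 more positive. These 11 became 7 without the lower dose library a and 6 with DESeq2. HBP1, a transcriptional repressor that slows entry into S phase, had 29.3 and 28.6 CPM in the untreated libraries, 23.8 and 24.9 CPM at the lower dose and 13.5 and 14.9 CPM at the higher dose. Its second step was −0.78 ± 0.07 (adjusted p = 1.04e-13) after a first step of −0.25 (difference −0.53, adjusted p = 0.000947). CCNG2, a cyclin linked to cell cycle arrest, had 62.4 and 60.8 CPM untreated, 55.9 and 55.2 CPM at the lower and 35.5 and 35.9 CPM at the higher dose, and MXD4, a partner of MAX that opposes MYC, had 100.2 and 95.8 CPM untreated, 87.4 and 88.8 CPM at the lower and 57.6 and 56.03 CPM at the higher dose. Their second steps of −0.64 and −0.63 stood against first steps of −0.15 and −0.15. TRIM63, a ubiquitin ligase of muscle, had a second step of −1.23 from only 1.004 and 1.07 CPM at the lower dose, and its call was lost with DESeq2 and without the higher dose library b. Members that did not follow included GADD45A, a stress gene that rose at the higher dose (30.1 and 32.4 to 38.8 and 37.7 CPM, 0.29 ± 0.05), and TXNIP, an inhibitor of thioredoxin, which fell and then rose again (−0.14 and 0.12).

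Promoter sequences show which list members carry the letters GTAAACA, the core that forkhead factors such as FOXO recognise, in the 250 bases before the gene's start. The sequences come from RefSeq (GRCh38.p14), which matched 10787 of the 13548 genes tested by symbol. GTAAACA was searched on both strands. It stood in 2.98% of the 27305 promoters in the table and in 1.88% of the promoters of genes tested, in 1.56% of those that rose in the second step and 2.82% of those that fell. In the list it was in 4 of 39 promoters (10.3%), those of HBP1, BCL2L11, TXNIP and BTG1. HBP1 and TXNIP are printed because the one fell at both steps and the other turned back, HBP1 from the forward strand (chr7:107168810-107168856) and TXNIP from the reverse strand (chr1:145996677-145996723), with GTAAACA in capitals.

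HBP1: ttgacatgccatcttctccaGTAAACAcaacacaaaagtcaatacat
TXNIP: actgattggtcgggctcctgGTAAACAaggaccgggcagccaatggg

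BTG1, an antiproliferative factor, and BCL2L11, a BH3-only killer protein, were not called in the second step (0.04 and −0.01) and were higher than untreated at the lower dose (0.18 and 0.23). YPEL3, KLHL24 and PDCD4, with large falls, do not have these letters in this window. A match is a description of the sequence and not a bound site, and a missing match speaks only of these letters in these bases.

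Of the receptors for the added ligands, CXCR4 had 45.3 and 49.3 CPM in the untreated libraries, 43.6 and 45.9 CPM at the lower dose and 33.99 and 34.3 CPM at the higher dose. Untreated and lower dose libraries overlapped and the higher dose libraries lay below both. The first step did not pass (−0.08 ± 0.05, adjusted p = 0.197), the second did (−0.39 ± 0.05, adjusted p = 8.36e-09), and the steps differed (−0.31, adjusted p = 0.0161). The first step of CXCR4 passed after correction for length and GC content and without the untreated library a, which made it graded. IGF1R had 33.2 and 35.6 CPM untreated, 29.4 and 31.5 CPM at the lower and 22.6 and 20.7 CPM at the higher dose, with −0.18 ± 0.06 in the first step and −0.49 ± 0.06 in the second (adjusted p = 2.58e-09). The second step was larger (difference −0.31, adjusted p = 0.0467), close to the threshold. INSR, the insulin receptor, which can pair with IGF1R, had 15.4 and 17.8 CPM untreated, 12.6 and 14.1 CPM at the lower and 9.44 and 9.73 CPM at the higher dose, with −0.32 and −0.48 and no called difference between the steps (adjusted p = 0.618). The first step of IGF1R was lost in 4 of the 13 alternatives and that of INSR in 2, while the fall between the doses passed in all of them.

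IGFBP1, a secreted IGF-binding protein whose gene FOXO activates and insulin represses, had 169.8 and 169.9 CPM in the untreated libraries, 129 and 134 CPM at the lower dose and 85.1 and 82.2 CPM at the higher dose. Replicates were close to each other, and the second step of −0.65 ± 0.03 (adjusted p = 1.86e-21) exceeded the first of −0.37 (difference −0.28, adjusted p = 0.000755). IGF2R, which carries IGF2 and lysosomal enzymes to the lysosome, had 144 and 142 CPM untreated, 103 and 106 CPM at the lower and 86.99 and 82.5 CPM at the higher dose, with steps of −0.45 and −0.30. Of 12 ligands, receptors and binding proteins of the IGF and CXCL12 systems tested, 8 fell in the second step and 0 rose (median −0.18), 6 of them graded and 2 seen only at the higher dose. Further down, PIK3CA and PIK3CD, catalytic subunits of PI3K, fell at the higher dose only. PIK3CA had 26.9 and 27.9 CPM untreated, 27.3 and 29.02 CPM at the lower and 21.3 and 21.5 CPM at the higher dose. The second steps of these genes were −0.40 ± 0.06 and −0.39 ± 0.07, the first steps 0.04 and −0.02, and the difference was called for each (adjusted p = 0.00341 and 0.031). Of 38 PI3K, AKT and mTOR components 12 were higher and 7 lower, the latter near the 17.6% of all genes tested. DESeq2 gave 6 and 4, where it called 1310 higher and 1393 lower among the 13548 genes tested. The median second step of the list was 0.02. Fewer members were higher without the lower dose library b or without the higher dose library b, with medians of 0.03 and 0.02.

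**Figure D2:**
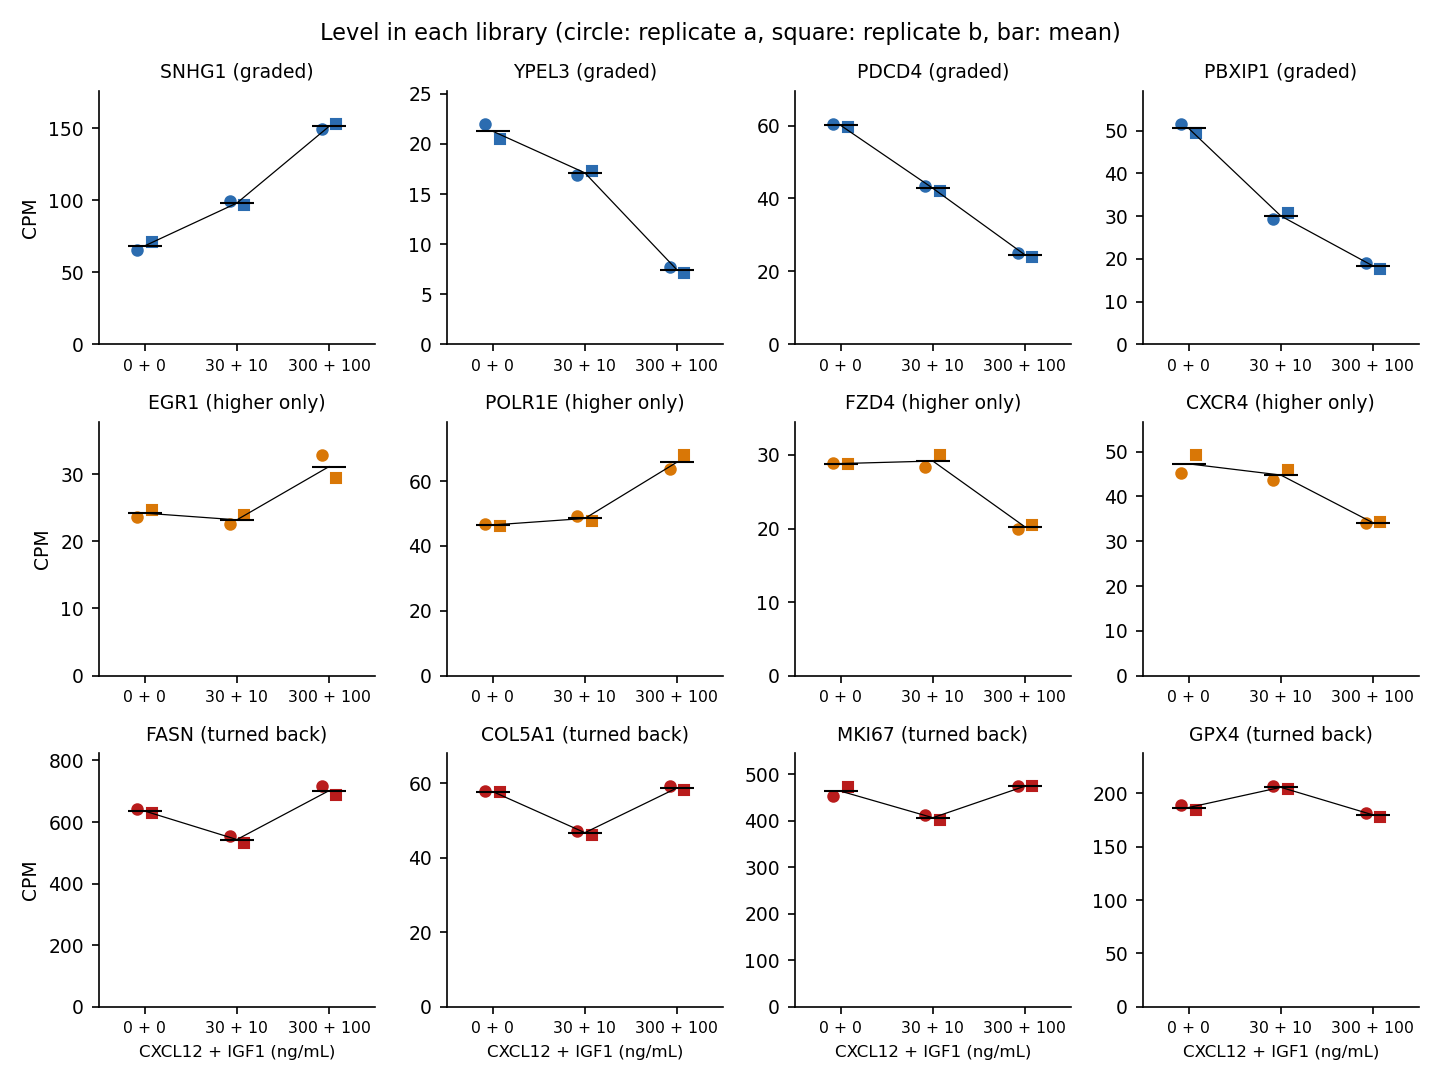
CPM in each library (circles replicate a, squares replicate b, bars the group mean) against the dose of CXCL12 and IGF1 in ng/mL for 4 genes of each shape, on linear axes that start at 0. SNHG1 climbs and YPEL3, PDCD4 and PBXIP1 descend at both steps, EGR1, POLR1E, FZD4 and CXCR4 move at the higher dose, and FASN, COL5A1 and MKI67 dip and GPX4 peaks at the lower dose.

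Ribosomal protein mRNAs rose at both steps. Of 31 small subunit genes tested, 28 rose in the second step and 0 fell, and 27 were graded. Of 47 large subunit genes, 40 rose, 3 fell, and 39 rose in a graded way. Without a correction for length the medians of both steps were close, 0.21 and then 0.20 for the small and 0.18 and 0.18 for the large subunit. RPS29, a small subunit protein, had 458 and 500.4 CPM in the untreated libraries, 639 and 600.5 CPM at the lower dose and 769 and 801 CPM at the higher dose. Its steps were 0.37 ± 0.03 and 0.34 ± 0.03 (adjusted p of the second 3.73e-13), and the groups did not overlap. RPL37, of the large subunit, had 638 and 660.2 CPM untreated, 842 and 800.3 CPM at the lower and 983 and 1022 CPM at the higher dose, with 0.34 and 0.29. RPS28, RPS21, RPS27, RPL36 and RPL23 had second steps of 0.32, 0.30, 0.28, 0.28 and 0.26. Those that fell were RPL13A (−0.12) and the stalk proteins RPLP0 (−0.14) and RPLP1 (−0.14). Ribosomal protein genes have many processed pseudogenes, whose handling in the counting is not given in the sources used here.

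These mRNAs are short, and length moved with the steps. Over 13221 genes with a GENCODE transcript length (97.6% of those tested), the shortest 10% of transcripts had a median second step of 0.06 and the longest 10% had −0.05. After a per-library correction for length and GC content, 27 small subunit genes rose and 2 fell with a median of 0.14, and the median of the first step went from 0.21 to 0.08. For the large subunit 35 rose and 3 fell, the median of the first step went from 0.18 to 0.08 and that of the second to 0.13, and graded genes went from 40 to 28. How far length has a part in the result was not tested beyond this correction. RPL10A, the endogenous gene of the tagged protein, had 1531 and 1557 CPM untreated, 1562 and 1522 CPM at the lower and 1621 and 1613 CPM at the higher dose, a second step of 0.07 ± 0.03 (adjusted p = 0.0327) that was lost in 5 alternatives, among them the correction and leaving out the lower dose library b or either higher dose library. Counts per gene do not separate the tagged copy from the endogenous one. Elongation factors and poly(A)-binding proteins, whose mRNAs are regulated like those of ribosomal proteins, had 5 rises and 3 falls among 13 tested. Initiation factors had 16 rises and 4 falls among 38. Over all genes tested, 16.4% rose and 17.6% fell in this step. EEF1A1, the factor that brings transfer RNA to the ribosome, had 12524 and 12317 CPM untreated, 11681 and 11316 CPM at the lower and 9713 and 9509 CPM at the higher dose, and PABPC1, the main poly(A)-binding protein, had 753 and 761 CPM untreated, 675 and 663 CPM at the lower and 553 and 558 CPM at the higher dose. Their second steps were −0.26 ± 0.03 and −0.27 ± 0.03, after first steps of −0.11 and −0.18.

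Factors that build ribosomes in the nucleolus rose between the doses. All 47 tested rose in the second step, with a median of 0.25, whereas 18 rose in the first step, with a median of 0.06. Over all genes tested, 16.4% rose in the second step and 16.7% in the first. The list was chosen with earlier results of these data known, so the count is not independent support. By shape, 18 were graded, 28 were seen only at the higher dose and 1 could not be placed. The second step was larger than the first by its own test in 16 and smaller in 1. These 17 calls became 9 without the lower dose library a, 11 without the lower dose library b or the higher dose library a, and 4 with DESeq2. The 18 graded genes became 10 without the untreated library a, 11 without one or the other lower dose library and 8 with DESeq2. NOP56, a core protein of the snoRNA particles that methylate ribosomal RNA, had 124 and 124 CPM in the untreated libraries, 116 and 125 CPM at the lower dose and 156 and 149 CPM at the higher dose. Its untreated and lower dose libraries overlapped, its second step was 0.34 ± 0.03, and the steps differed by 0.37 (adjusted p = 2.38e-05). POLR1E, a subunit of RNA polymerase I, which transcribes ribosomal RNA, had 46.8 and 46.2 CPM untreated, 49.3 and 47.7 CPM at the lower and 63.6 and 68.1 CPM at the higher dose, a second step of 0.44 ± 0.04 (adjusted p = 3.2e-12) after 0.06 in the first. NOP16, an assembly factor of the large subunit, was graded, with 34.1 and 33.7 CPM untreated, 44.8 and 45.6 CPM at the lower and 62.3 and 63.3 CPM at the higher dose and steps of 0.42 and 0.47. RRP9, which binds the U3 snoRNA, had 0.14 and 0.46, PNO1, an assembly factor of the small subunit, 0.24 and 0.42, and PPAN −0.12 and 0.44. PPAN overlaps a readthrough transcript with its neighbour and its counts are uncertain.

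Side by side, 29 of 31 and 41 of 47 ribosomal protein genes and 18 of 47 biogenesis factors rose in the first step. The step difference was called positive in 16 biogenesis factors and in 0 ribosomal protein genes, and negative in 1 and 3, with the dependence on single libraries just given. Over all genes tested it was positive in 2.56% and negative in 3.93%. After the length and GC correction the medians of the first step lay closer, at 0.077 and 0.079 for the small and large subunit and 0.056 for the biogenesis factors. Differences in either direction were then called in 2 of 31 small subunit genes, 5 of 47 large subunit genes and 25 of 47 biogenesis factors.

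Enzymes of nucleotide synthesis rose between the doses as well. Of 24 enzymes, 14 rose in the second step and 0 fell (median 0.15), but 4 rose and 1 fell in the first (median 0.02). By shape, 11 of the 14 were seen only at the higher dose. Over all genes tested, 16.4% rose in the second step and 16.7% in the first, so the first-step rises were near that share. The second step was larger than the first by test in 3 of the 24, and under DESeq2 or without the lower dose library a in 1, so for most members a difference between the steps was not shown. It was called in 2 without the lower dose library b or the higher dose library a. DHODH, the mitochondrial enzyme of pyrimidine synthesis, had 8.26 and 7.42 CPM in the untreated libraries, 8.001 and 8.02 CPM at the lower dose and 11.9 and 10.95 CPM at the higher dose. Untreated and lower dose libraries overlapped, and the second step was 0.51 ± 0.09 (adjusted p = 1.21e-05). CAD, which starts pyrimidine synthesis, had 96.5 and 103 CPM untreated, 93.5 and 97.4 CPM at the lower and 109 and 110.3 CPM at the higher dose, with −0.06 and then 0.20 (difference 0.26, adjusted p = 0.00466). PPAT and PFAS, of purine synthesis, rose by 0.28 and 0.25, and NME1, a nucleoside diphosphate kinase, by 0.23.

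Targets of ATF4, the transcription factor of the amino acid response, rose in 16 of 29 cases and fell in 4 (median 0.13). In the first step 9 rose and 6 fell. CHAC1, which degrades glutathione, had 16.5 and 16.4 CPM in the untreated libraries, 16.3 and 16.4 CPM at the lower dose and 23.2 and 21.9 CPM at the higher dose. Its first step did not pass (−0.01 ± 0.07), it rose in the second (0.46 ± 0.07, adjusted p = 9.92e-08), and the steps differed (adjusted p = 0.00884). A rule that named CHAC1 asked for a first step near 0 and a called difference between the steps. ATF3, a stress-induced factor, was graded at 0.26 and 0.26, with 7.57 and 6.69 CPM untreated, 8.80 and 8.23 CPM at the lower and 10.3 and 10.1 CPM at the higher dose. ASNS, asparagine synthetase, did not pass (0.05, adjusted p = 0.492). SESN2, a sensor of leucine that restrains mTORC1, and CEBPB, a bZIP factor, rose by 0.48 and 0.47, and CTH, which makes cysteine, changed by −0.52.

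The motif TGATGNAA, the composite element bound by C/EBP and ATF4, was found on either strand in 3 of 24 promoters of this list (12.5%), those of the 3 genes CHAC1, ATF3 and ASNS, against 3.19% of all promoters in the table and 1.37% of those of genes tested. They are shown because the 3 had different shapes: CHAC1 at the higher dose, ATF3 at both steps and ASNS without a called second step. They read from chr15:40953242-40953289 and chr1:212565196-212565243 on the forward strand and chr7:97872449-97872496 on the reverse strand (RefSeq, GRCh38.p14), with the match in capitals. The match of CHAC1 is on the opposite strand and appears as its reverse complement.

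CHAC1: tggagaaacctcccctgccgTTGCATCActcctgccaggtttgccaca
ATF3: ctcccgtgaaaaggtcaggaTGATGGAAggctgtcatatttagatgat
ASNS: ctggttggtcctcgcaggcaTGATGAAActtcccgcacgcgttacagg

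Other genes that rose at the higher dose only were EGR1, TRAF1, RELT and RCAN1. The rule took them, and POLR1E above, only from genes with a first step near 0 and a called difference between the steps. Both features were therefore fixed by the choice and add no support. EGR1, an immediate-early factor of the ERK pathway, had 23.7 and 24.7 CPM in the untreated libraries, 22.5 and 23.9 CPM at the lower dose and 32.9 and 29.4 CPM at the higher dose. The second step was 0.42 ± 0.06 (adjusted p = 7.18e-08) and differed from the first of −0.06 (adjusted p = 0.00198). TRAF1, an adaptor of TNF receptors, had 12.02 and 11.7 CPM untreated, 12.4 and 11.7 CPM at the lower and 15.9 and 17.3 CPM at the higher dose, RELT, a member of the TNF receptor family, rose by 0.42 ± 0.05, and RCAN1, an inhibitor of the phosphatase calcineurin, by 0.41 ± 0.04. HSPA8, the constitutive HSP70 chaperone, had 1606 and 1603 CPM untreated, 1636 and 1621 CPM at the lower and 2016 and 1960.0 CPM at the higher dose, with 0.02 and then 0.29 ± 0.03 (difference 0.27, adjusted p = 4.09e-05). HK2, hexokinase 2, which starts glycolysis, had 96.3 and 97.6 CPM untreated, 95.8 and 92.9 CPM at the lower and 118 and 117 CPM at the higher dose. For EGR1, TRAF1, HSPA8 and HK2 the higher dose libraries lay above the other 4. Of 38 HIF targets and glycolysis genes, among them HK2, 9 rose and 13 fell in the second step (median −0.02), after 1 rise and 23 falls in the first. Over all genes tested, 16.4% rose and 17.6% fell in the second step, and 16.7% rose and 15.9% fell in the first.

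Falls of this kind included FZD4, a Wnt receptor, with 28.9 and 28.8 CPM in the untreated libraries, 28.3 and 30.02 CPM at the lower dose and 19.9 and 20.5 CPM at the higher dose. Its first step was 0.02 and its second −0.53 ± 0.06 (adjusted p = 2.42e-10, difference −0.55, adjusted p = 0.00017). FOXN3, a forkhead repressor of the cell cycle, had 51.4 and 53.98 CPM untreated, 50.2 and 51.4 CPM at the lower and 35.02 and 33.99 CPM at the higher dose, a second step of −0.56 ± 0.05. GABARAPL1, an ATG8 protein of the autophagosome, had 27.4 and 28.4 CPM untreated, 28.02 and 27.6 CPM at the lower and 18.6 and 19.7 CPM at the higher dose, a second step of −0.54 ± 0.06. In each of the 3 the untreated and lower dose libraries lay together and the higher dose libraries apart, a pattern favoured by the same rule, which named them. That rule also required a called difference between the steps. RBMS2, an RNA-binding protein, had −0.55 and was graded under 3 alternatives. CCDC28A and C7orf41 (MTURN) had −0.56 and −0.55.

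**Figure D3:**
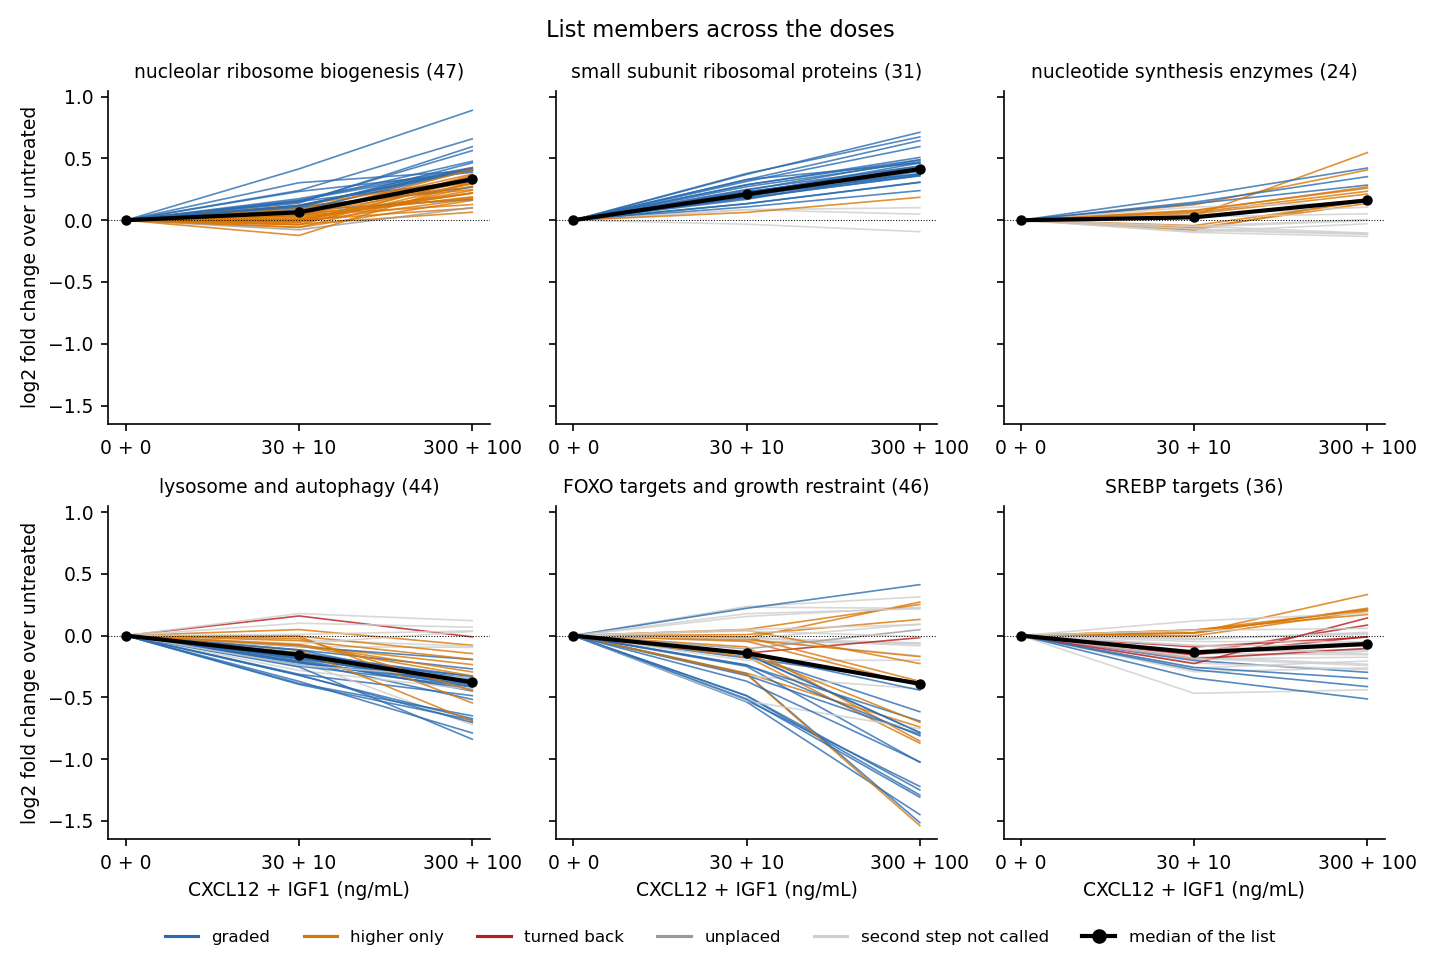
Each thin line is a gene of the list named above its panel, drawn as log2 fold change over untreated at 0, 30 and 300 ng/mL CXCL12 (with 0, 10 and 100 ng/mL IGF1) and coloured by shape, with the list's median in black. Ribosomal protein lines rise over both steps, nucleolar and nucleotide synthesis lines rise between the doses (with a called step difference in 17 of 47 and 3 of 24 genes), lysosome and FOXO lines descend, and SREBP target lines dip at the lower dose.

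Lysosome and autophagy genes fell along the dose: 35 of 44 fell in the second step, 0 rose and 9 did not pass, with a median of −0.19 after −0.16 in the first step. Of the 35, 25 were graded, 9 were seen only at the higher dose and 1, NPC2, turned back. NBR1, a receptor that brings ubiquitinated cargo to autophagosomes, had 165 and 160.3 CPM in the untreated libraries, 138 and 135 CPM at the lower dose and 92.3 and 89.6 CPM at the higher dose, and fell more between the doses (−0.59 ± 0.03, adjusted p = 3.62e-20) than before (−0.25, difference −0.33, adjusted p = 6.44e-05). ULK1, the kinase that starts autophagy, had 20.1 and 21.4 CPM untreated, 18.3 and 19.96 CPM at the lower and 13.3 and 12.4 CPM at the higher dose and was seen to fall at the higher dose (−0.57 ± 0.07). WIPI1, which binds lipids of the forming autophagosome, had −0.42. The lysosomal membrane protein LAMP1 had 267 and 258 CPM untreated, 229 and 242 CPM at the lower and 205 and 203 CPM at the higher dose, with −0.16 and −0.21. Among enzymes, CTSA (cathepsin A) had −0.20 and −0.25, GAA (acid alpha-glucosidase) −0.32 and −0.35, and CTSD (cathepsin D) −0.31 and −0.17. MCOLN1, a calcium channel of the lysosome, had −0.14 and −0.21. CLN3, a lysosomal membrane protein, was seen to fall only at the higher dose (−0.08 and −0.24). The proton pump subunit ATP6V0D1 (−0.05) did not pass.

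CACGTG, the palindromic E-box at the centre of the element that TFEB and its relatives bind (USF and MYC proteins bind it too), was in 8 of 28 promoters of this list (28.6%), against 6.49% of all promoters in the table and 8.81% of those of genes tested. The share was alike for genes that rose and fell in the second step over all genes, 10.2% and 9.75%, and for those at least 1.2-fold apart it was 10.6% and 6.75%. A high share was not particular to this list. It was 25.8% among initiation factors (8 of 31), of which more rose than fell, and 23.1% in the list of FOXO targets and growth restraint (9 of 39). Stretches of the 6 promoters below show how the E-boxes (capitals) repeat in some and stand alone in others. They were picked by hand from the 8, all belong to genes with a negative second step, and the others are not shown. LAMP1 holds 5 in chr13:113297027-113297236 (forward strand), CTSA 2 in chr20:45891273-45891334 (forward), GAA 2 in chr17:80101485-80101575 (forward) and MCOLN1 2 in chr19:7522563-7522623 (forward). CTSD holds 1 in chr11:1763949-1763994 (reverse strand) and CLN3 1 in chr16:28492079-28492124 (reverse), all from RefSeq, GRCh38.p14, written in the direction of the gene.

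LAMP1: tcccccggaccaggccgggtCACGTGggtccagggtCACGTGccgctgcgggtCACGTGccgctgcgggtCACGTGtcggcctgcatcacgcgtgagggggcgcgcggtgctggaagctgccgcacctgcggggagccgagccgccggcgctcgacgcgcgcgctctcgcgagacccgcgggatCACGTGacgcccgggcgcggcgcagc
CTSA: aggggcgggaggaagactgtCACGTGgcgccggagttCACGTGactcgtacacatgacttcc
GAA: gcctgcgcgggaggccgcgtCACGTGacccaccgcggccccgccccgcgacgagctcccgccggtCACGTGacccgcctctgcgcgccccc
MCOLN1: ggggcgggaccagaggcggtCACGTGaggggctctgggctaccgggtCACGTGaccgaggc
CTSD: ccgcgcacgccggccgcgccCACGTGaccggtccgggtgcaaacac
CLN3: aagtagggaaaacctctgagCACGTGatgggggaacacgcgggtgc

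The number of E-boxes did not order the falls in these 6 genes: LAMP1 with 5 had a second step of −0.21, GAA with 2 had −0.35, and CLN3 with 1 had −0.24. GABARAPL1 and NBR1, with larger falls, have no CACGTG in this window.

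Genes that turned back were few, and few of them held that shape under other settings. Of the 68 that fell and then rose, 12 ended above untreated, 5 below it and 51 were not told from it. Of the 93 that rose and then fell, 7 ended below untreated, 6 above it and 80 were not told from it. Their steps were small, with median first steps of −0.18 and 0.15. The counts depended on single libraries: 34 in place of 68 were found without the higher dose library a, 41 and 44 without the lower dose libraries a and b, and 48 in place of 93 were found without the higher dose library a, 60 and 65 without the lower dose libraries a and b and 61 without the higher dose library b. Of the 68, 11 (16.2%) held this shape in all 13 alternatives, and of the 93, 11 (11.8%). For graded rises and falls these shares were 39.3% and 41.7%, and for rises and falls seen only at the higher dose 28.4% and 30.3%. The genes named in the next paragraphs, other than COL5A1, SMAD6 and members of the gene lists, were chosen after their values were seen, from those kept under all alternatives or with large transcripts. The 68 had a median transcript length of 4223 bases and a GC content of 55.9%, the 93 had 3763 bases and 45.5%, and all genes tested had 3243 bases and 48.7%. After the length and GC correction 91 of the 161 kept the shape.

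FASN, fatty acid synthase, fell at the lower dose and rose at the higher. It had 641 and 629.9 CPM in the untreated libraries, 553 and 533 CPM at the lower dose and 717 and 687 CPM at the higher dose. The lower dose libraries lay below all others and the higher dose libraries above, with a first step of −0.23 ± 0.03 (adjusted p = 2.29e-09), a second of 0.37 ± 0.03 (adjusted p = 3.32e-16), and a level above untreated at the higher dose (0.14, adjusted p = 1.04e-05). HMGCS1, of the cholesterol pathway, had 226 and 219 CPM untreated, 204 and 199 CPM at the lower and 242 and 231 CPM at the higher dose, and also ended above untreated. SC5DL (SC5D), a late enzyme of that pathway, had −0.16 and 0.15, and LSS, lanosterol synthase, −0.15 and 0.10. SCD, the fatty acid desaturase, had 1048 and 951 CPM untreated, 865 and 890.0 CPM at the lower and 949.5 and 910.4 CPM at the higher dose and came back part of the way. FASN, HMGCS1 and SC5DL kept the shape in all 13 alternatives.

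The list of SREBP targets, to which these genes belong, had 21 falls and 0 rises of 36 in the first step (median −0.14), and 12 rises and 4 falls in the second (median 0.04). The second step was more positive than the first in 14 members and more negative in 0, by the test of the difference, which was called in 8 with DESeq2 or without the lower dose library b. Of the 12 rises, 6 turned back (3 without the higher dose library a) and 6 were seen only at the higher dose, among them MVD and MVK, of mevalonate metabolism. MVD had 128 and 120.1 CPM untreated, 131 and 120.4 CPM at the lower and 156 and 156 CPM at the higher dose and a second step of 0.31 ± 0.03. MVK had 0.20. The list did not move as one. SREBF1, the gene of the regulator SREBP-1, had 81.4 and 73.3 CPM untreated, 53.9 and 57.8 CPM at the lower and 60.7 and 53.2 CPM at the higher dose: it fell at the first step (−0.47) and its second step did not pass (0.03, adjusted p = 0.709).

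COL5A1, a chain of type V collagen, had 57.9 and 57.5 CPM in the untreated libraries, 47.3 and 46.1 CPM at the lower dose and 59.2 and 58.2 CPM at the higher dose. Its lower dose libraries lay under the other 4, which were close together, with steps of −0.31 ± 0.04 and 0.33 ± 0.04 (adjusted p = 1.08e-08, difference 0.64, adjusted p = 3.32e-08). MKI67, the proliferation antigen Ki-67, had 454 and 473 CPM untreated, 411 and 401 CPM at the lower and 474 and 474 CPM at the higher dose, with −0.19 and 0.22. It was the one member of the G2 and mitosis list to turn back: of 39 tested, 21 fell in the second step and 3 rose, and 14 were graded falls. DDIT4, an inhibitor of mTORC1 induced by stress and low oxygen, had 162 and 149.9 CPM untreated, 142 and 137 CPM at the lower and 171 and 170.1 CPM at the higher dose, and HIF1A, the oxygen-regulated factor, 182 and 184 CPM untreated, 171 and 169 CPM at the lower and 192 and 189 CPM at the higher dose. KRT19, a keratin, had −0.18 and 0.14. COL5A1, MKI67, DDIT4, HIF1A and KRT19 were among the 11 kept in all alternatives.

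A further 8 genes that turned back, all for large cytoskeletal or cortical proteins, were picked after their values were seen, and how many such genes did not turn back was not counted. PLEC, the cross-linker plectin, had 747 and 786 CPM in the untreated libraries, 668 and 648 CPM at the lower dose and 759 and 754 CPM at the higher dose. The lower dose libraries were the lowest. The actin cross-linkers FLNC and FLNA (filamins) had steps of −0.14 and 0.37, and −0.15 and 0.07. The spectrins SPTBN1 and SPTAN1, which line the membrane, had −0.19 and 0.28, and −0.20 and 0.33. DYNC1H1, the dynein heavy chain, had −0.19 and 0.14, DST, dystonin, −0.19 and 0.13, and IQGAP1, a scaffold of Rac and Cdc42, −0.24 and 0.13. Of the 8 genes none kept the shape in all 13 alternatives, and PLEC, SPTBN1 and DYNC1H1 kept it in 12. FLNC, SPTBN1 and SPTAN1 ended above untreated, FLNA and IQGAP1 below it. The rule for named genes gave COL7A1, KDM6B, LHFPL4, LRRC8E and ZNF2 beside COL5A1, and these 5 lost the shape in 5 to 7 of the 13 alternatives.

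In the other direction SMAD6, an inhibitor of BMP signalling, had 12.8 and 12.9 CPM in the untreated libraries, 15.5 and 15.3 CPM at the lower dose and 11.4 and 11.5 CPM at the higher dose. The lower dose libraries were the highest, with steps of 0.26 ± 0.08 and −0.43 ± 0.08 (adjusted p = 1.4e-05). The shape was lost with DESeq2 and without the lower dose library a. GPX4, which removes lipid peroxides and guards against ferroptosis, had 189 and 185 CPM untreated, 207 and 204 CPM at the lower and 181 and 178 CPM at the higher dose, with 0.14 and −0.19 ± 0.03 (adjusted p = 4.55e-07) and a called difference (−0.33, adjusted p = 9.39e-06). KLHDC3, a substrate receptor of a ubiquitin ligase, had 265 and 274 CPM untreated, 305 and 306 CPM at the lower and 261 and 276 CPM at the higher dose. The lower dose libraries of both genes were the highest, and the higher dose libraries of KLHDC3 spanned the untreated ones while those of GPX4 lay just under them. EXT1, which builds heparan sulphate chains, had 0.16 and −0.15, MBNL2, a splicing regulator, 0.22 and −0.23, MAF1, a repressor of RNA polymerase III, 0.13 and −0.16, and CASP4, an inflammatory caspase, 0.16 and −0.16. These 6 kept the shape in all 13 alternatives. FYN, a Src-family kinase, and ATG13, of the ULK1 complex, ended below untreated, with 0.13 and −0.32, and 0.10 and −0.27. The rule also named C18orf32, C7orf58, LOC100506394, PRR16 and RBMS3, which kept the shape in 6 to 9 of the 13.

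Mitochondrial genes were counted by function. Of 27 import genes, 24 rose in the second step and 0 fell (median 0.18) and 19 were graded, led by the small chaperones TIMM8A (32.03 and 34.4 CPM untreated, 44.1 and 40.5 CPM at the lower and 59.8 and 57.9 CPM at the higher dose, second step 0.48 ± 0.05) and TIMM9 (0.43 ± 0.05). Mitochondrial ribosomal proteins rose in 55 of 77 cases and fell in 0 (median 0.14), 33 graded and 18 seen only at the higher dose. After the length and GC correction 44 rose and 1 fell, 19 were graded, and the median of the first step went from 0.10 to 0.04. For the import genes that median went from 0.19 to 0.09. Nuclear-encoded subunits of the respiratory chain had risen in 46 of 75 cases in the first step (median 0.10), and rose in 23 and fell in 4 in the second (median 0.06). After the length and GC correction the medians of the steps were 0.01 and 0.01. In 7 of the 75 the second step was below the first by test, but in 0 without the lower dose library a, 3 without the higher dose library a and 2 with DESeq2. The 23 became 12 after the length and GC correction, 9 without the lower dose library b and 10 without the higher dose library b. CYCS, cytochrome c, rose by 0.33 ± 0.03. Beside these counts and the next, 16.4% of all genes tested rose and 17.6% fell in the second step. DESeq2 called 1310 of the 13548 higher. Proteasome subunits rose in 13 of 31 cases and fell in 1, but in 3 with DESeq2, 6 without the lower dose library a and 4 without any one of the other 3 dosed libraries.

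Of 45 tested genes that act at G1/S and in DNA replication, 19 rose between the doses and 0 fell (median 0.09), 11 of them seen only at the higher dose. CDC25A, the phosphatase that activates CDK2, had 30.3 and 33.2 CPM untreated, 34.5 and 35.3 CPM at the lower and 46.8 and 45.2 CPM at the higher dose, a second step of 0.40 ± 0.05. Against them stood the G2 and mitosis genes above, with a median of −0.11 and CDC25C, BUB1, KIF20A and TTK at −0.31, −0.31, −0.29 and −0.28. Among 37 mesenchymal and extracellular matrix genes there were 24 falls and 3 rises (median −0.24), and 22 of the falls were graded. FN1, fibronectin, had 359.9 and 382 CPM untreated, 277 and 282 CPM at the lower and 238 and 229 CPM at the higher dose, with −0.41 and −0.26. HSPG2, perlecan, had −0.61 and −0.38, a smaller fall in the second step by test (difference 0.23, adjusted p = 0.0357).

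Inflammatory and survival genes were mixed. NF-kB targets and cytokines rose in 11 of 29 cases and fell in 2, with a median of 0.18 that was 0.06 among members with at least 5 CPM. IL8 (CXCL8), a neutrophil chemokine, was graded, with 33.4 and 32.2 CPM in the untreated libraries, 44.5 and 40.2 CPM at the lower dose and 61.7 and 60.7 CPM at the higher dose, and rose by 0.53 ± 0.05 (adjusted p = 9.21e-14). BIRC3, an inhibitor of apoptosis, rose at both steps (0.39 and 0.52). BMF, a BH3-only gene, fell at both (−0.48 and −0.99 ± 0.17), from 5.36 and 4.98 CPM to 1.95 and 1.76 CPM. Apoptosis regulators rose in 7 of 29 cases and fell in 3, where 16.4% and 17.6% of all genes tested rose and fell. KLF4, a zinc finger factor, rose by 0.52 ± 0.05, while ETV1, an ETS factor that ERK output raises in other cells, changed by −0.45. The ERK output list went both ways (14 rose and 10 fell of 41, with 9 rises under DESeq2). STAT2, which carries interferon signals, had 30.6 and 31.3 CPM untreated, 21.5 and 21.9 CPM at the lower and 14.5 and 12.7 CPM at the higher dose. Its second step was −0.68 ± 0.07, and of 46 interferon-stimulated genes 19 fell and 3 rose, with 12 falls without the higher dose library b.

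**Figure D4:**
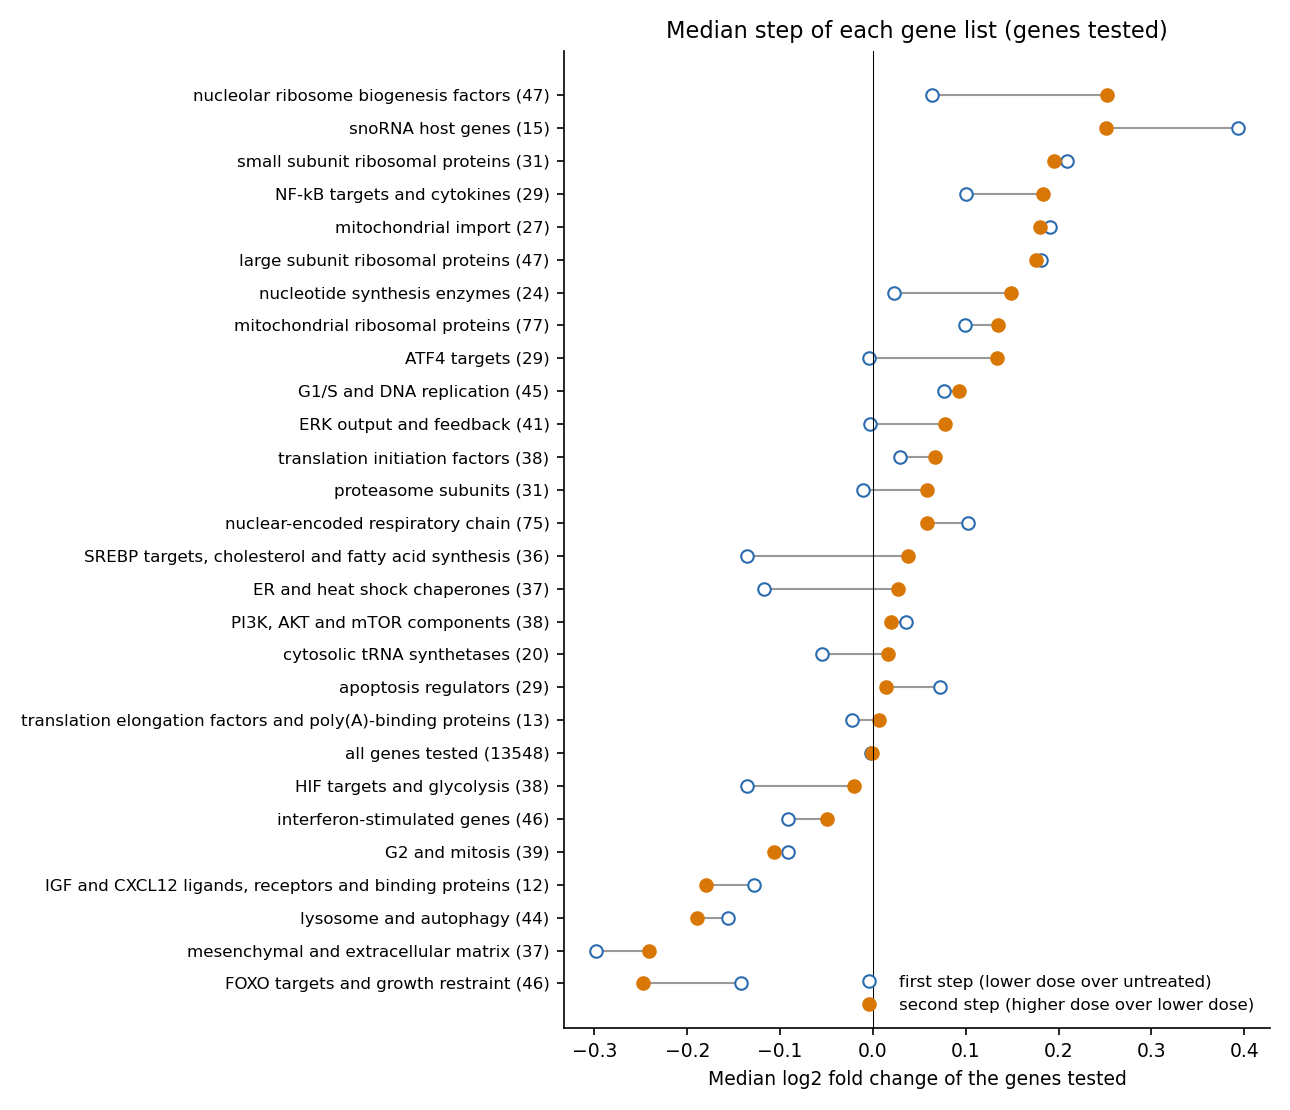
Median log2 fold change of each gene list in the first step (open blue) and second step (filled orange), with the number of genes tested in brackets. Ribosomal proteins lie between 0.18 and 0.21 in both steps, nucleolar factors at 0.06 and 0.25, SREBP targets at −0.14 and 0.04, and lysosome genes at −0.16 and −0.19.

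Finally, 1999 genes passed in the first step and not in the second, 1050 that rose and 949 that fell. In 259 of them the steps differed by test, so that the change was larger at the lower dose than on top of it. The genes named here were chosen after their values were seen. HSPA5, the main chaperone of the endoplasmic reticulum, had 792 and 749 CPM in the untreated libraries, 627 and 617 CPM at the lower dose and 663 and 626 CPM at the higher dose. It changed in the first step by −0.31 and had 0.05 ± 0.03 in the second (adjusted p = 0.165, difference 0.36, adjusted p = 1.13e-06). TNC, the matrix protein tenascin C, had 56.8 and 57.1 CPM untreated, 41.6 and 41.8 CPM at the lower and 45.3 and 40.9 CPM at the higher dose, with −0.45 and 0.05. OST4, a small subunit of the oligosaccharyltransferase, rose and then did not pass (0.42 and 0.01), with 141 and 151 CPM untreated, 197 and 194 CPM at the lower and 191 and 203 CPM at the higher dose. Endoplasmic reticulum and heat shock chaperones fell in 22 of 37 cases in the first step and rose in 2. In the second step 9 rose and 9 fell, with 9 positive and 0 negative differences between the steps. Differences were called in 4 without the lower dose library b or the higher dose library a and in 5 without the lower dose library a. The 9 rises and 9 falls became 6 and 6 without the lower dose library b, and the falls 6 without the higher dose library b.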

How the data were processed

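The authors deposited raw counts for each gene symbol in a separate file per library. Per the submitters' processing notes the tools were CASAVA 1.8.1, TopHat 1.4.0 and HTSeq, with the human build hg19. Annotation, counting mode and use of strand: not given in the sources used here. The 5 summary lines at the end of each file, 9.40% to 10.2% of the reads, were left out. The test was the robust, two-sided quasi-likelihood F test of edgeR 4.0.16 (R 4.3.3), with TMM scaling and filterByExpr, in 1 fit over 6 libraries (3 group means, 3 residual degrees of freedom) and contrasts for each step and for their difference. TMM takes most genes as unchanged, so each rise or fall is relative to the other genes. 13548 genes were tested and 8071 were not, and p-values were adjusted by Benjamini-Hochberg over all genes tested, with a threshold of 0.05. SE was derived from a gene's log2 fold change and its F statistic. Replicate pairs differed by more than counting noise (chi-square per degree of freedom 1.98, 1.69 and 1.52 over genes with at least 20 reads). This does not show that the pairs came from separate cultures. Each library counted as a sample because the labels call a and b biological replicates. Limits from 3 reads cover counting error only.

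The comparison, the gene lists and the named genes were chosen with earlier results of these data known. The rule for named genes took the 12 highest and 12 lowest second steps at 5 CPM or more without overlap, the 6 leading genes of each shape and direction, up to 4 called members of each list, and CXCR4, IGF1R, INSR and RPL10A. Other genes were named after their values were seen. Some genes that the rule names are not reported here. Some genes stand in more than 1 list. Alternatives were DESeq2 1.42.0, its size factors, other filters, a correction for length and GC content, the replicate letter as a block, an adjusted p threshold of 0.01, the 4 dosed libraries alone and leaving out each library. The fit was also run on simulated counts with planted steps larger than most steps called here. That check therefore does not bear on small steps or on the shapes drawn from them.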

Additional observations from a re-analysis of the deposited data

Results flagged for a closer look

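Reads that HTSeq set aside because they fell in overlapping genes, which enter no comparison here, took 2.0645% of all reads in the higher dose library a and 2.0821% in the higher dose library b. They were 1.87% and 1.90% in the untreated libraries and 1.98% and 1.97% in the lower dose libraries, so both higher dose libraries lay above the other 4. The difference was not tested.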

How the results depend on the processing

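The comparison between the doses kept its direction for each of the 157 genes named by the rule in every setting that tested it. Genes named after their values were seen were not followed in this way. DESeq2 called 1310 higher and 1393 lower genes, 621 and 619 graded rises and falls, 23 and 19 that turned back up and down, and 91 and 124 with a positive and a negative difference between the steps. At an adjusted p of 0.01 turned back counts were 28 and 34 and step differences 145 and 234. Leaving out 1 library gave 1595 to 2336 higher and 1645 to 2478 lower genes, 712 to 1062 graded rises and 766 to 1076 graded falls, and 637 to 1040 rises and 668 to 1180 falls seen only at the higher dose. It gave 34 to 53 genes that turned back up and 48 to 81 down, and 127 to 417 positive and 217 to 638 negative step differences. The cause of these changes was not tested. The labels do not say that a letter marks a shared batch or day, and deviations of libraries with the same letter had correlations of −0.045 to 0.0025. With the replicate block 2169 genes were higher and 2347 lower, 1090 and 1108 were graded, 878 and 1019 were seen only at the higher dose, 64 and 86 turned back, and 302 and 493 had a step difference. Under the length and GC correction the counts were 2417 and 2142, 1091 and 991, 1085 and 924, 80 and 95, and 440 and 546. Of the 157 named genes 17 lost their second-step call with DESeq2, 12 without the lower dose library b, 10 without the higher dose library a, 9 without the higher dose library b and 7 without the lower dose library a. Depth limits genes near 0.0991 to 0.114 CPM, and 2 libraries in each group limit all tests.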
